A study of Homo sapiens with 24 samples.

Results

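The nuclear receptor superfamily was examined as 43 genes in T47D, an established luminal breast cancer cell line that carries the estrogen receptor. A peak of accessible chromatin was assigned to a gene when its midpoint lay within 50 kb of the gene's hg38 interval. The genes ESR1, PGR and RARA were left out of the set by that rule. All 43 genes were found in the RefSeq gene table (GRCh38.p14), and together they held 939 of the 189403 peaks measured. Of these, 817 passed a filter on low counts and were tested, and 122 were not. A gene had between 2 peaks (NR0B1) and 65 peaks (RARB), with a median of 20, and 482 of the 939 peaks lay inside the gene itself. THRA and NR1D1 lie side by side and share 24 peaks, and NR5A1 and NR6A1 share 15. The members were chosen by gene family and not by a rule on any value measured here. Earlier results of these data were known when they were chosen.

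The assay was ATAC-seq, in which the Tn5 transposase cuts accessible DNA and the reads in a peak measure how open it is. There were 6 groups of 4 libraries. The starved groups grew for 3 days in hormone-depleted medium, which is phenol red free RPMI with charcoal-stripped serum, and then received 1 nM estradiol or 0.1% DMSO vehicle for 1 h. The other groups grew for 1 day in complete medium, which is RPMI with untreated serum, and then received 100 nM fulvestrant, 100 nM raloxifene, 100 nM tamoxifen or 0.1% DMSO for 1 h. The complete and depleted arms therefore differed in serum, phenol red, days in culture and number of cells seeded at the same time, and these cannot be told apart. Groups are called starved vehicle, starved estradiol, complete vehicle, fulvestrant, raloxifene and tamoxifen below.

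Nuclear receptors are transcription factors that bind short DNA elements, usually built from copies of a half-site related to AGGTCA. Many are switched on by small fat-soluble ligands, among them steroid and thyroid hormones, retinoids, vitamin D, oxysterols and fatty acids, while the orphan members have no agreed natural ligand. Several bind DNA as a pair with the retinoid X receptor (RXR), and receptors are often controlled by each other, so that a receptor gene can itself be a hormone target. In breast epithelium the estrogen receptor is the best known member. Serum is a source of many of these ligands, and charcoal stripping removes much of the fat-soluble part.

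Library totals ran from 434598 counts (fulvestrant replicate 4) to 12140005, and the next lowest was starved vehicle replicate 3 with 2422981. In 2 complete vehicle libraries, replicates 3 and 4, the title names the vehicle and the treatment label names fulvestrant. They were kept as vehicle, and results without them are given where a call or a count depends on them. No label says that replicates were separate cultures, and the p-values cover only the variation among these libraries, possibly technical. All 10 luminal markers had a peak within 2 kb, with group sums of 353.9 to 433.6 CPM (counts per 1000000 of the library's scaled total). Basal or mesenchymal markers had group sums of 45.8 to 61.0 CPM with no peak at KRT14, and blood markers 49.3 to 73.9 CPM. Bulk libraries cannot tell fewer open cells from less opening per cell.

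Retinoic acid receptor beta (RARB) has several annotated starts, and one of them differed between the media. The 250 bases before each of its 4 annotated starts are shown because the accessibility of these starts is compared below. They are RefSeq sequence (GRCh38.p14, plus strand, 5′ to 3′). Capitals mark a match to the half-site AGGTCA in the window of start 2, and in that of start 3 a match to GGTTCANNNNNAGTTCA, the form of the textbook retinoic acid response element of this gene.
RARB start 1, chr3:24829071-24829320: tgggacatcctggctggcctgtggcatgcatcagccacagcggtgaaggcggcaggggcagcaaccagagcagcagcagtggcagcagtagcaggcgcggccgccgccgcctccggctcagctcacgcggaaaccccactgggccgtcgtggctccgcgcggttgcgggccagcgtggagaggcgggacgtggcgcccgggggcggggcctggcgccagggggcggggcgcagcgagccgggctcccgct
RARB start 2, chr3:25340552-25340801: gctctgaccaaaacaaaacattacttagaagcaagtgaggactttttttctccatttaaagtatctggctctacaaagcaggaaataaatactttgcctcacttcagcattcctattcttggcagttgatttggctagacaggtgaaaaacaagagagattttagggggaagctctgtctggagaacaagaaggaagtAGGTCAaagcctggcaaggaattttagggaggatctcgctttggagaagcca
RARB start 3, chr3:25428013-25428262: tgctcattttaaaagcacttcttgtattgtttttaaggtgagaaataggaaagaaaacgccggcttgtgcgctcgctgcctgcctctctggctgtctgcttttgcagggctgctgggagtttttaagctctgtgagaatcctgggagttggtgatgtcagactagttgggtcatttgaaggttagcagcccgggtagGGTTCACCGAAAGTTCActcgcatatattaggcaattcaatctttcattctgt
RARB start 4, chr3:25458060-25458309: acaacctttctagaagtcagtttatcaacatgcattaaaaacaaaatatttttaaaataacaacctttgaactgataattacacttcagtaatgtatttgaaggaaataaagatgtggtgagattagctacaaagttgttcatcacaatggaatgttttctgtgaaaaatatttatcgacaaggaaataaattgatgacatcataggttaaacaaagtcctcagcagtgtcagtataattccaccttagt
The content of G and C was 76.0% before start 1, 41.6% before start 2, 46.0% before start 3 and 29.6% before start 4. Both strands were searched. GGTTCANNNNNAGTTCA, searched after the sequence was seen, occurred in 6 of 34943 promoter windows of the same length (0.0172%), and 1 of the 84 windows of the 38 nuclear receptor genes with an entry held it. AGGTCA occurred in 12.1% of all windows and in 14 of the 84, in 10 genes (ESR2, ESRRG, NR0B1, NR1H3, NR1H4, NR2E1, NR5A2, PPARG, RARB and RXRG). The longer AAAGGTCA, which contains AGGTCA, occurred in 1.04% of all windows and in 3 of the 84 (ESRRG, NR2E1 and PPARG). The estrogen response element, searched as GGTCA and TGACC with 3 bases between them, occurred in 0.0401% of all windows and in none of the 84. Direct repeats of AGGTCA spaced by 1 to 5 bases occurred in none of the 84. VDR, NR2F6, NR0B2, HNF4G and NR4A2 had no entry.

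Chromatin was most open at ESR2, NR4A1, NR6A1 and RXRA when each gene was represented by its strongest peak within the gene or 2 kb of it. Levels were compared per kb of peak, as the mean CPM per kb over the 24 libraries. ESR2, the second estrogen receptor, had 306 CPM per kb at a peak over a start, meaning here that it overlaps the window from 250 bases before to 50 after. NR4A1, an immediate early orphan receptor, followed with 282 CPM per kb inside the gene. NR6A1 had 249 CPM per kb and RXRA, the main RXR partner, had 229. The lowest levels were 2.60 CPM per kb at NR2E3, a photoreceptor regulator, 4.58 at NR1I2, the xenobiotic sensor of liver, and 8.78 at RXRB. NR0B2 and NR2E1 had no peak this close. The median over 41 genes was 74.8 CPM per kb. The strongest peak lay over an annotated start in 16 genes, while VDR, NR4A2, HNF4G and NR2F6 have no start in the promoter table and could not be scored.

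Few of the strongest peaks passed a test. Among the 40 that were tested none was called with estradiol (0.813% of all peaks were higher and 0.0223% lower), and 2 were called between the media (over all peaks, 7.93% higher in complete medium and 9.91% lower). These were NR1I3, the constitutive androstane receptor, at 153 CPM per kb in starved vehicle and 99.9 in complete vehicle (log2 change -0.60, edgeR adjusted p = 0.000164), and RARG (136 and 168 CPM per kb, edgeR adjusted p = 0.0423). Between starved estradiol and complete vehicle 4 were called, NR1I3, NR5A1, HNF4A and THRB (edgeR adjusted p = 0.000601, 0.00566, 0.028 and 0.047), where 9.39% of all peaks were higher and 7.24% lower. Fulvestrant had the lowest group mean at 28 of the 41 genes. That group contains the shallow replicate 4, and its part in this was not tested.

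**Figure D1:**
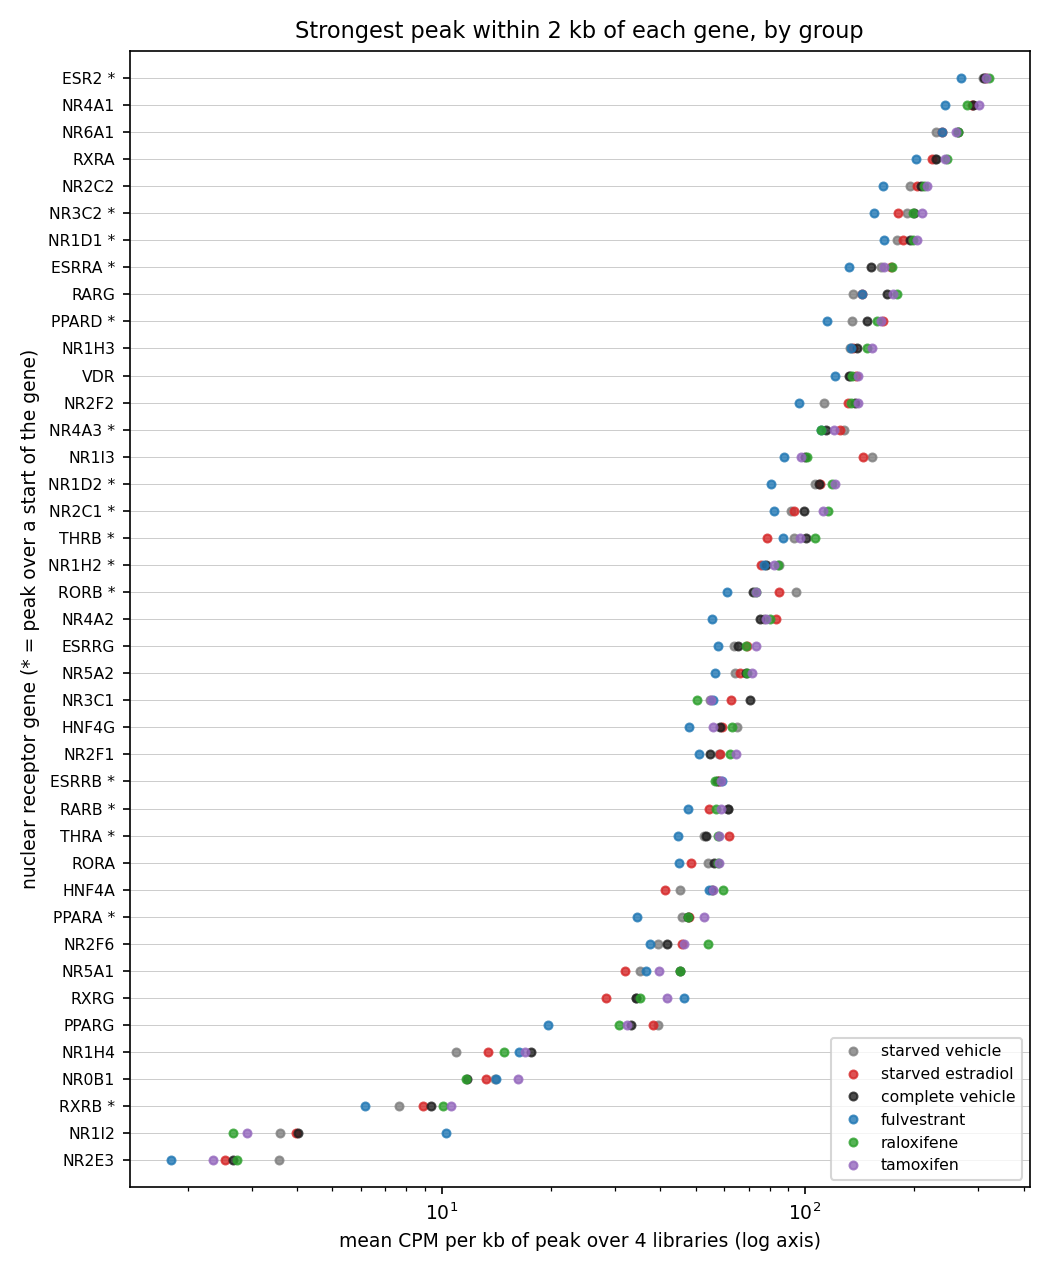
Mean accessibility over 4 libraries in CPM per kb of peak (log axis) at the strongest peak of each of 41 nuclear receptor genes, with a dot for each group and an asterisk where the peak lies over a start of the gene. Levels run from 2.60 at NR2E3 to 306 at ESR2, and the groups lie close together at most genes.

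Estradiol for 1 h opened chromatin at ESR2, NR5A2 and NR6A1. Of the 817 tested peaks, 5 were higher in starved estradiol than in starved vehicle, and none was lower (edgeR, Benjamini-Hochberg adjusted p under 0.05 over 156745 peaks). That is 0.612% of the nuclear receptor peaks, against 0.813% higher and 0.0223% lower among all peaks. DESeq2 also called 5 higher and none lower. At an unadjusted p under 0.05, 42 of the 817 peaks differed (5.14%), against 6% of all peaks. In all 5 peaks every estradiol library was above every vehicle library, and the groups did not overlap in 92.4% of the peaks called over the whole set.

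Of these peaks, 3 stood together inside ESR2, 47.9 to 50.6 kb from its nearest annotated start. At chr14:64235043-64235249 the starved vehicle libraries had 9.68, 8.58, 6.41 and 7.37 CPM and the estradiol libraries 23.1, 22.8, 22.3 and 23.5 CPM. The estradiol values lay close together and far above all vehicle values. The fold change was 2.76 (log2 1.47, SE 0.170, edgeR adjusted p = 3.68e-09), and the call held under every alternative run. Complete vehicle had 27.8, 26.6, 24.9 and 24.8 CPM, so this peak was also open in complete medium.

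The other ESR2 peaks were lower in level. At chr14:64233665-64233865 starved vehicle had 1.27, 0.497, 1.20 and 0.546 CPM and starved estradiol 3.00, 3.20, 3.40 and 2.83 CPM (log2 fold change 1.96, SE 0.355, edgeR adjusted p = 0.000125). At chr14:64232351-64232638 starved vehicle had 2.42, 3.73, 1.20 and 1.37 CPM and starved estradiol 6.51, 10.8, 7.48 and 7.71 CPM (log2 fold change 1.83, SE 0.373, edgeR adjusted p = 0.00757). Neither pair of groups overlapped. The first of these missed the threshold with replicates 1 and 2 alone (edgeR adjusted p = 0.0824), and the second without starved vehicle replicate 4 (edgeR adjusted p = 0.0879). Both were named after their values were seen.

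The 3 ESR2 peaks were also compared between starved estradiol and complete vehicle. At chr14:64232351-64232638 complete vehicle had 18.6, 19.1, 15.6 and 14.0 CPM, and every estradiol library was below every one of these (log2 fold change of starved estradiol against complete vehicle -1.05, SE 0.231, edgeR adjusted p = 0.00192). At chr14:64235043-64235249 the same difference was -0.19 (edgeR adjusted p = 0.366), and at chr14:64233665-64233865 it was 0.13 (edgeR adjusted p = 0.784). The difference between the peaks was not tested.

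NR5A2, the receptor also called LRH-1, had the largest fold change of the 5. Its peak at chr1:200016908-200017204 lies 10.7 kb before the gene's first start. Starved vehicle had 2.07, 1.74, 1.60 and 1.46 CPM, starved estradiol 7.51, 6.93, 9.52 and 8.10 CPM, and complete vehicle 7.35, 8.06, 6.59 and 6.57 CPM. The vehicle libraries of depleted medium stood below all libraries of the other 2 groups. The fold change with estradiol was 4.67 (log2 2.22, SE 0.266, edgeR adjusted p = 2.33e-09), and the call held under every alternative.

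NR6A1, the germ cell nuclear factor, had a weaker peak at chr9:124749881-124750113, inside the gene and 21.3 kb from its start. Starved vehicle had 1.73, 1.99, 0 and 1.73 CPM and starved estradiol 4.00, 7.03, 4.08 and 5.27 CPM. The library at 0 was the shallow starved vehicle replicate 3, where a count of 0 allows up to 1.20 CPM (3 counts, counting error only). The fold change was 3.05 (log2 1.61, SE 0.361, edgeR adjusted p = 0.00939). It missed the threshold in 3 of 18 alternatives, each of which left out 1 library: starved estradiol replicate 2, starved vehicle replicate 1 or starved vehicle replicate 4 (edgeR adjusted p of 0.0645, 0.0554 and 0.0758).

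**Figure D2:**
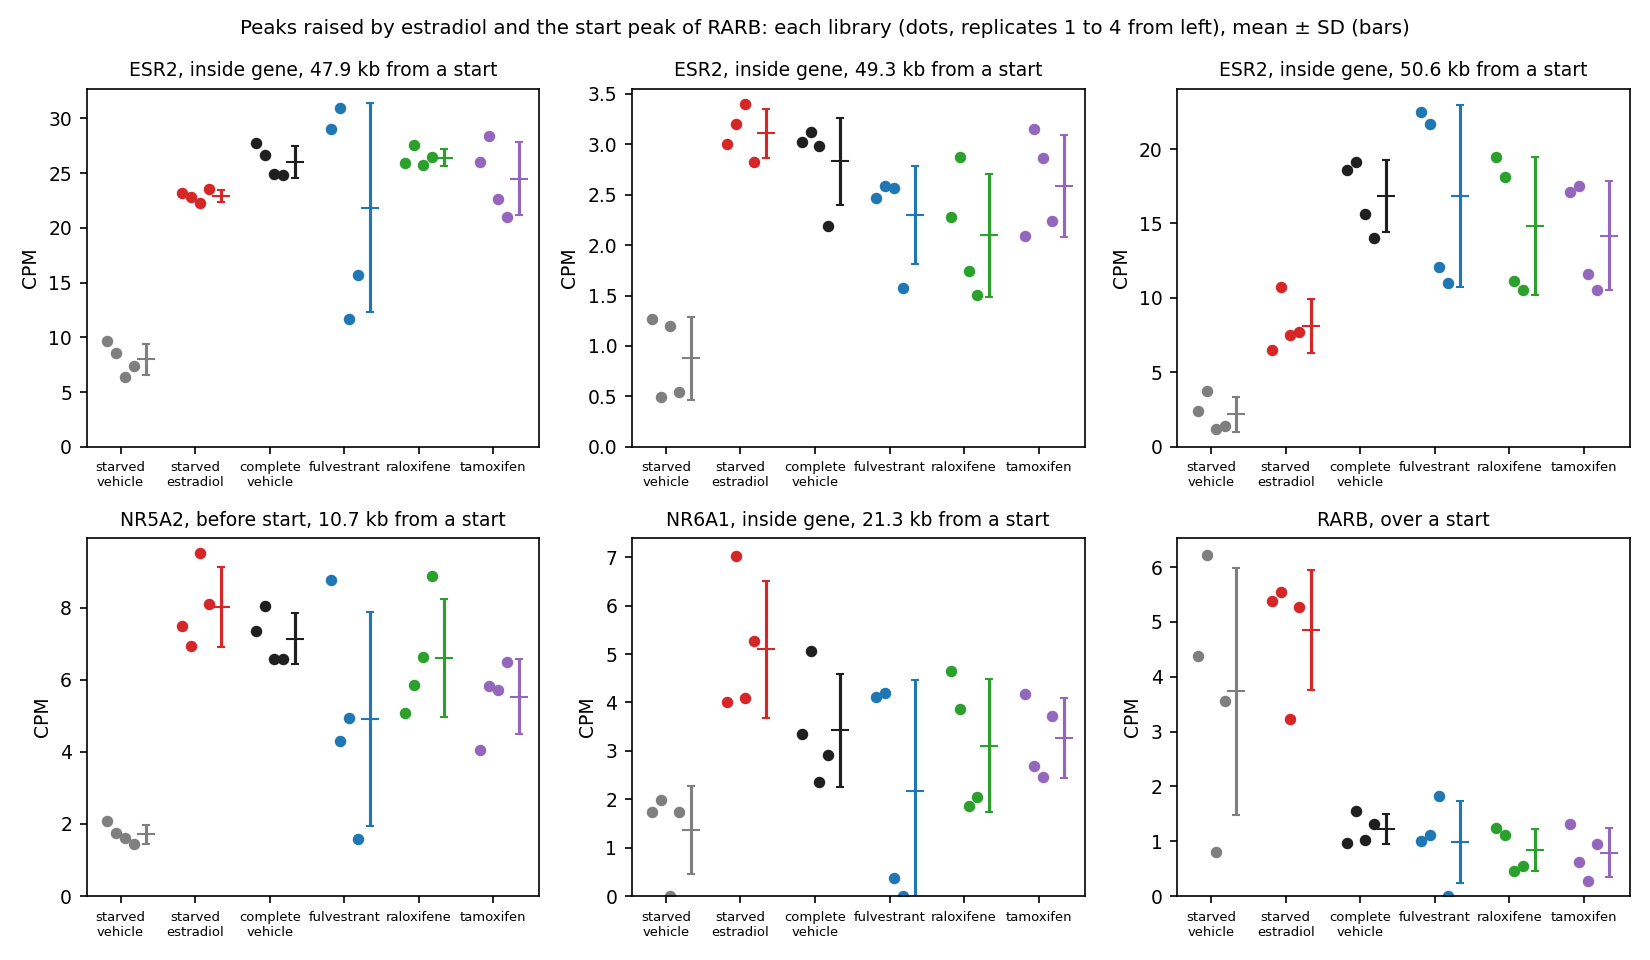
CPM in each of the 24 libraries (dots, replicates 1 to 4 from left) with the mean ± SD of 4 libraries (bars cut at 0), for the 5 peaks raised by estradiol and for the RARB start peak. The 5 estradiol peaks are lowest in starved vehicle, the RARB start peak is high in depleted medium with and without estradiol, and fulvestrant replicates 3 and 4 lie apart from replicates 1 and 2 at the ESR2 peak with 47.9 kb to its start.

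No other member had a peak that passed the test with estradiol. None of the 297 tested peaks of the 13 receptors that pair with RXR (thyroid hormone, retinoic acid, vitamin D, PPAR, liver X, bile acid and xenobiotic receptors) passed it, and none of the 74 peaks of RXRA, RXRB and RXRG. With 0.813% of all peaks higher and 0.0223% lower, few calls would fall in classes of this size. The median log2 fold change was -0.046 over the partner peaks and -0.0082 over the RXR peaks, beside -0.0088 over all peaks. The estrogen-related receptors ESRRA, ESRRB and ESRRG, orphans close in sequence to the estrogen receptor, had 80 tested peaks and none called, with a median of -0.00045. When counts were summed over all peaks within 50 kb of each gene, only ESR2 rose among the 43 genes (log2 fold change 0.21, SE 0.0461, edgeR adjusted p = 0.00516), which is 2.33% beside 1.55% higher and 0.0356% lower of 19687 genes. Its summed level was 198, 177, 157 and 188 CPM in starved vehicle and 213, 207, 209 and 224 CPM in starved estradiol, and the groups did not overlap. The sum includes the ESR2 peaks already called with estradiol, so it is not independent of them. The call on the sum was lost without starved vehicle replicate 2.

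Far more of these peaks were called between the 2 vehicle groups than with 1 h of estradiol. The vehicle groups differed in days in culture and cells seeded as well as in medium. Between complete and starved vehicle, 69 of 817 peaks were higher in complete medium (8.45%, against 7.93% of all peaks) and 70 were lower (8.57%, against 9.91%). Both shares are near the background. The 139 peaks belonged to 39 of the 43 genes, and 18 genes had peaks in both directions. NR0B1, NR1H3, NR1H4 and RXRB had none. In 88 of the 139 peaks (63.3%) the libraries of the 2 groups did not overlap, against 67.3% of all called peaks, and 77 (55.4%) changed by at least 2-fold, against 60.5%. For 93 the nearest gene was the receptor itself, and for 46 it was another gene. The counts rested on the replicates used, with 26 higher and 31 lower in replicates 3 and 4 alone, and 46 higher and 41 lower without the 2 vehicle libraries whose labels conflict. Of the 139 peaks, 32 were called under every alternative run, and this share was not counted over all peaks.

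**Figure D3:**
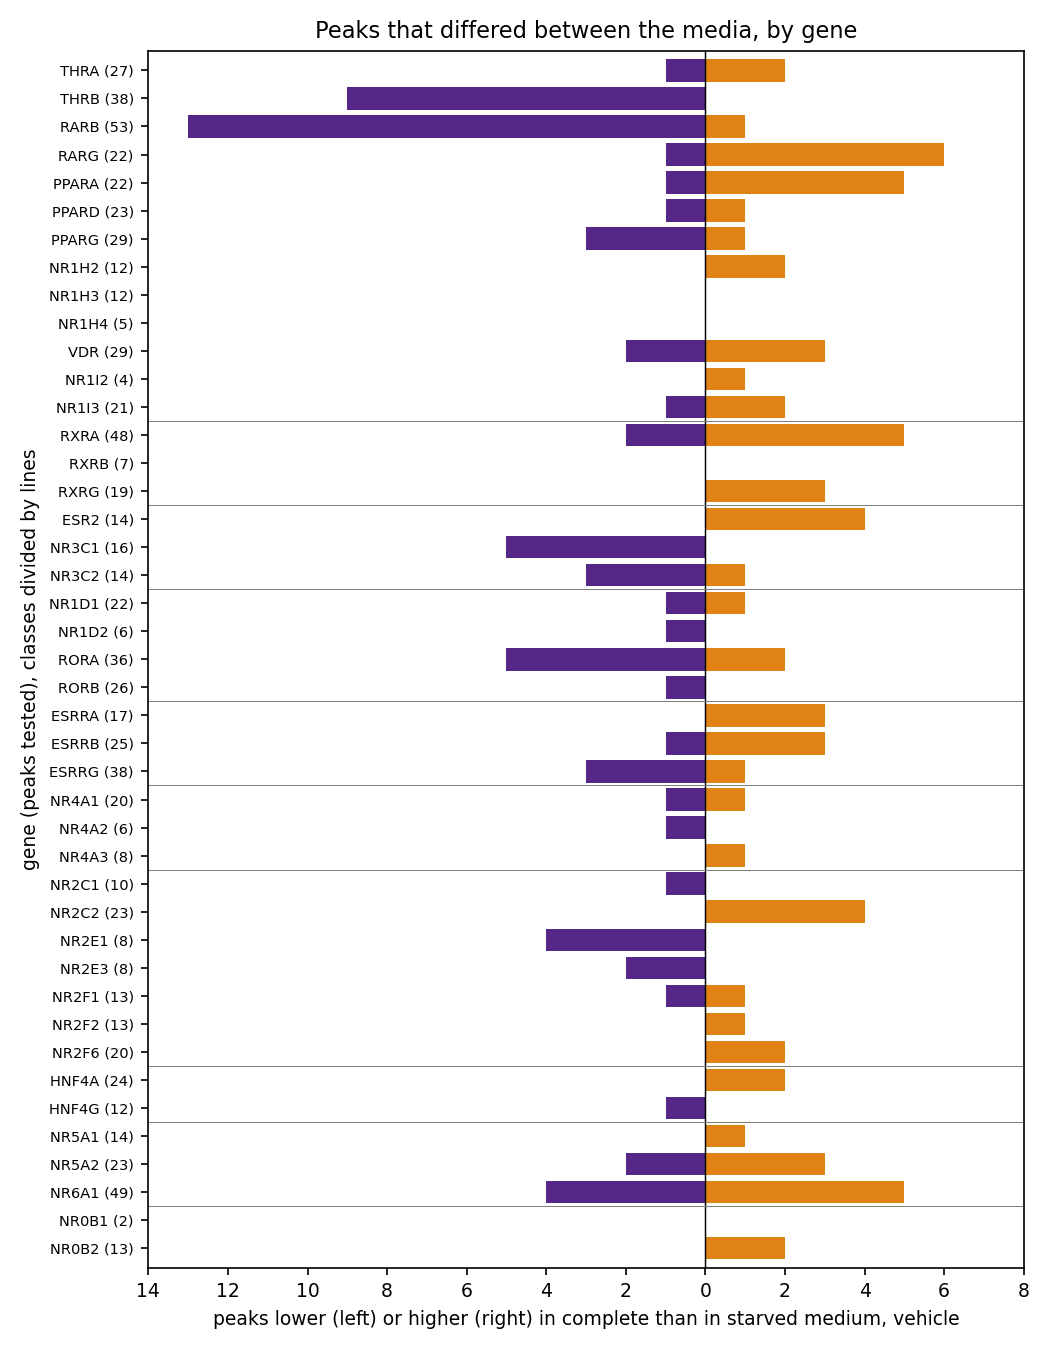
Number of peaks within 50 kb of each gene that were lower (left) or higher (right) in complete than in starved vehicle, with the number tested in brackets and lines between receptor classes. By count, RARB and THRB lead on the lower side with 13 of 53 and 9 of 38 tested peaks. On the higher side RARG, PPARA, RXRA and NR6A1 have 6 of 22, 5 of 22, 5 of 48 and 5 of 49. Over all peaks 9.91% were lower and 7.93% higher. Some genes with fewer tested peaks had larger shares, with 4 of 8 lower at NR2E1, 5 of 16 lower at NR3C1 and 4 of 14 higher at ESR2.

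The retinoic acid receptors, which are activated by vitamin A derivatives, went different ways. RARB had 13 peaks lower in complete medium and 1 higher of 53 tested, with log2 fold changes of -2.47 to -0.69 among the 13. The gene itself was the nearest gene for 12 of the 13. RARG had 6 peaks higher and 1 lower of 22. Summed over its peaks, RARB had 194, 207, 167 and 200 CPM in starved vehicle and 148, 151, 154 and 146 CPM in complete vehicle, without overlap (log2 fold change -0.42, SE 0.0597, edgeR adjusted p = 2.44e-06). The same sum for RARG rose by 0.13 on the log2 scale (SE 0.0417, edgeR adjusted p = 0.0212). Only 2 of the 6 RARG peaks had RARG as their nearest gene. The difference between the 2 receptors was not tested.

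The starts of RARB did not move together. The peak over start 4, chr3:25458166-25458384, had 4.38, 6.22, 0.802 and 3.55 CPM in starved vehicle, 5.38, 5.54, 3.23 and 5.27 CPM in starved estradiol, and 0.973, 1.56, 1.03 and 1.31 CPM in complete vehicle. The depleted libraries were high with and without estradiol, except starved vehicle replicate 3, which overlapped the complete libraries. The fold change of complete against starved vehicle was 0.283 (log2 -1.82, SE 0.336, edgeR adjusted p = 2.28e-05). With replicates 3 and 4 alone it missed the threshold (edgeR adjusted p = 0.0861).

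The other RARB starts gave no call. The peak over start 1, chr3:24829219-24829428, had 12.8 ± 0.658 CPM (SD, n = 4) in starved vehicle and 12.8 ± 1.42 CPM in complete vehicle (log2 change 0.01, SE 0.161). The peak over start 3, chr3:25428050-25428267, had 7.90 ± 1.38 and 7.35 ± 1.20 CPM (log2 fold change -0.12, SE 0.191). Both pairs of groups overlapped. No peak lay over start 2. The peak that differed was thus at the window with the lowest G and C content of the 4, and the one at the window with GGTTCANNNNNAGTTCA did not pass the test. The most significant RARB peak lay inside the gene at chr3:25533496-25533696, 75.3 kb from a start, with 8.64, 11.4, 9.22 and 8.92 CPM in starved vehicle and 3.89, 5.46, 2.98 and 3.36 CPM in complete vehicle (log2 change -1.29, SE 0.217, edgeR adjusted p = 3.45e-06).

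**Figure D4:**
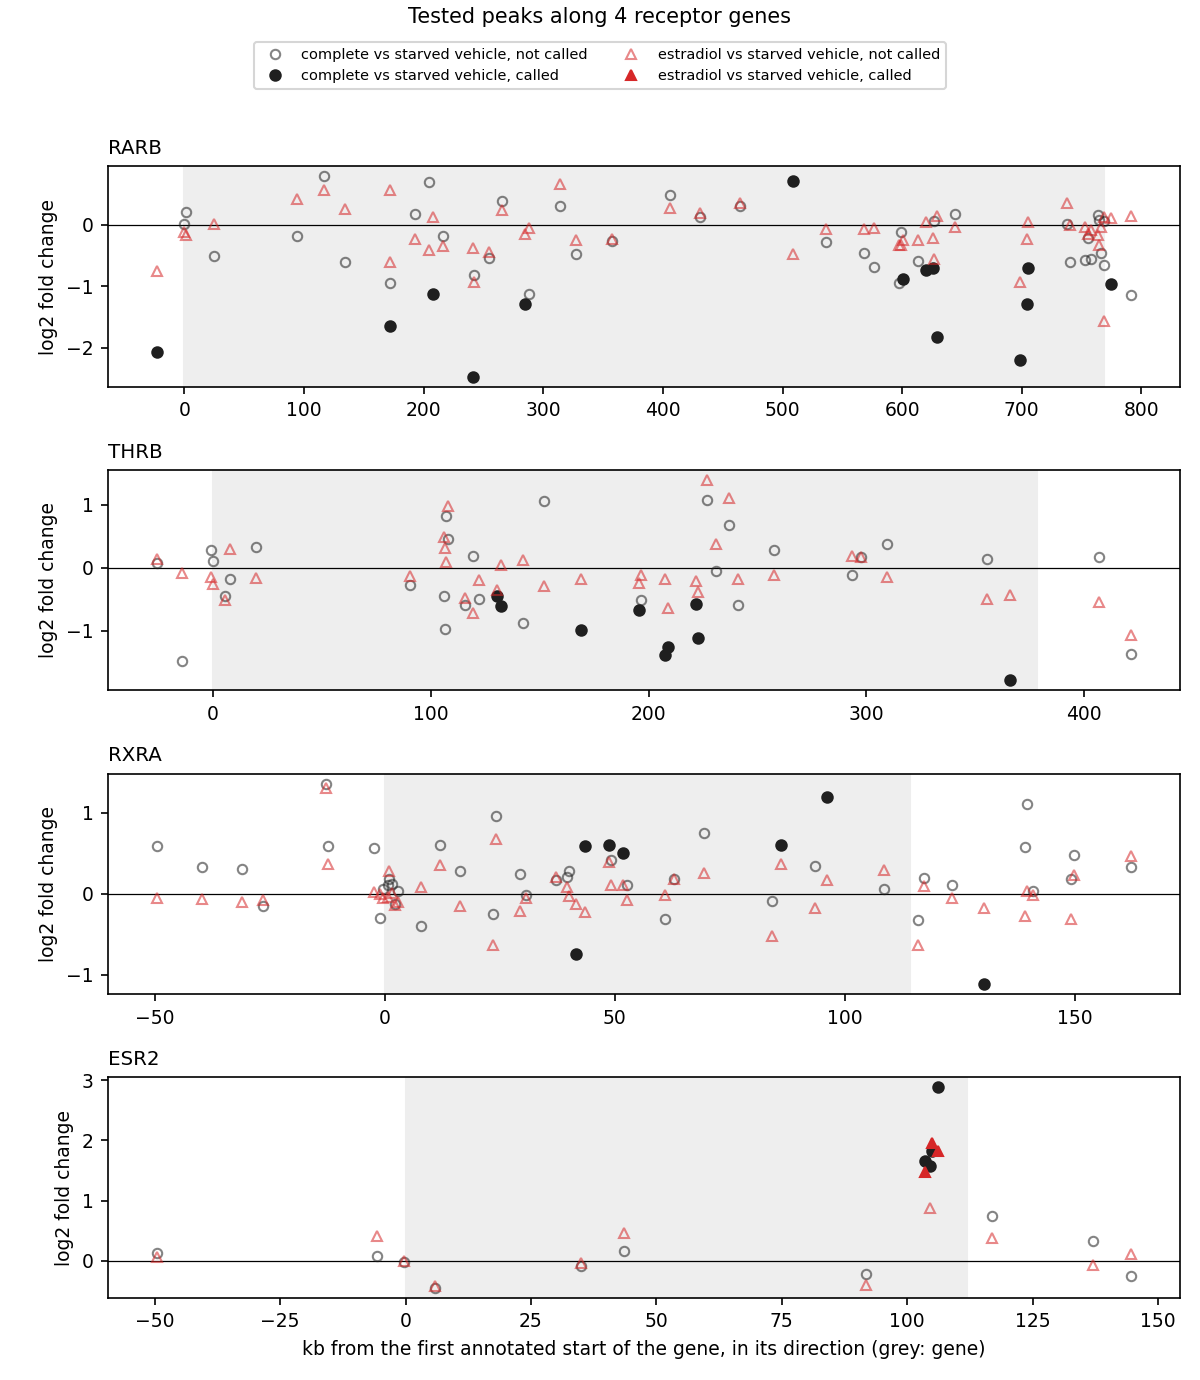
Log2 fold change of every tested peak along RARB, THRB, RXRA and ESR2, against the distance in kb from the gene's first annotated start (grey band: the gene; circles: complete against starved vehicle; triangles: estradiol against starved vehicle; filled: adjusted p under 0.05). Lower peaks are spread over RARB, and 8 of the 9 in THRB lie in its middle, while the filled ESR2 peaks sit in 1 cluster near the end of the gene.

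Of the thyroid hormone receptors, THRB had 9 peaks lower in complete medium and none higher of 38 tested, all 9 inside the gene. Its leading peak, chr3:24288151-24288437, had 5.30, 7.46, 4.41 and 6.37 CPM in starved vehicle and 2.05, 2.21, 3.40 and 1.46 CPM in complete vehicle, without overlap (log2 fold change -1.39, SE 0.254, edgeR adjusted p = 2.05e-05). The summed THRB level was 166, 173, 156 and 173 CPM against 143, 141, 149 and 141 CPM (log2 fold change -0.26, SE 0.0479, edgeR adjusted p = 5.38e-05). THRA had 2 peaks higher and 1 lower of 27, and its sum gave no call (log2 fold change 0.04, edgeR adjusted p = 0.483).

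Among the fatty acid receptors, PPARA had 5 peaks higher in complete medium and 1 lower, though PPARA was the nearest gene for only 1 of the 5. The lower one, chr22:46178819-46179051, lies inside the gene (log2 fold change -1.27, SE 0.223, edgeR adjusted p = 9.25e-06). PPARG had 3 lower peaks inside the gene, led by chr3:12357521-12357735 (log2 fold change -1.48, edgeR adjusted p = 0.00014, not called in replicates 3 and 4 alone), and 1 higher peak near another gene. PPARD had 1 in each direction, and its lower peak inside the gene changed by -0.98 on the log2 scale (edgeR adjusted p = 1.46e-06).

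The vitamin D receptor VDR had 3 peaks higher and 2 lower. The leading higher peak, chr12:47944998-47945261, lies 40.1 kb from VDR and nearest to TMEM106C. It had 17.6, 12.7, 16.4 and 15.7 CPM in starved vehicle, 14.5, 14.9, 15.6 and 14.3 CPM in starved estradiol, and 28.0, 29.4, 31.1 and 29.6 CPM in complete vehicle. All complete libraries were above all depleted ones (log2 fold change 0.93 between the vehicles, SE 0.129, edgeR adjusted p = 3.8e-08). The leading lower VDR peak was nearest to HDAC7 (log2 fold change -0.69, edgeR adjusted p = 4.06e-05). The xenobiotic and bile acid receptors gave few calls. NR1I3 had 2 higher peaks, both nearer to other genes, and 1 lower peak inside the gene, NR1I2 had 1 higher, and NR1H4 none. Of the liver X receptors, NR1H2 had 2 higher peaks, both nearer to other genes, and NR1H3 none.

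RXRA, the shared partner, had 5 peaks higher and 2 lower of 48 tested, the 5 all inside the gene. At chr9:134422394-134422664 starved vehicle had 8.64, 9.32, 10.4 and 13.4 CPM, starved estradiol 12.5, 9.38, 13.1 and 13.1 CPM, and complete vehicle 24.2, 23.8, 25.8 and 23.5 CPM. The complete libraries stood above all depleted ones (log2 fold change 1.20, SE 0.149, edgeR adjusted p = 1.49e-09). At chr9:134456509-134456765, 16.1 kb beyond the gene, the order was the opposite, with 20.9, 22.5, 17.6 and 14.7 CPM in starved vehicle and 11.1, 8.06, 8.75 and 6.13 CPM in complete vehicle (log2 change -1.12, SE 0.159, edgeR adjusted p = 6.4e-08). Both calls held under every alternative. RXRG had 3 higher peaks and none lower, and its summed counts rose by 0.28 on the log2 scale (SE 0.0741, edgeR adjusted p = 0.00434).

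The steroid receptors also split. ESR2 had 4 higher peaks of 14, the 3 that estradiol raised and chr14:64233915-64234156 between them (log2 fold change 1.58, SE 0.342, edgeR adjusted p = 0.00033). These 2 comparisons share the starved vehicle libraries. The summed ESR2 level was 235, 213, 229 and 215 CPM in complete vehicle, above all starved vehicle libraries (log2 fold change 0.25, SE 0.0463, edgeR adjusted p = 4.7e-05).

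NR3C1, the glucocorticoid receptor, had 5 lower peaks and none higher of 16. Its leading peak, chr5:143279779-143280014, lies inside the gene. It had 13.7, 14.0, 16.8 and 12.6 CPM in starved vehicle and 6.27, 6.37, 5.25 and 6.71 CPM in complete vehicle, a clear separation (log2 fold change -1.17, SE 0.173, edgeR adjusted p = 1.97e-07). The summed NR3C1 level fell from 72.4, 80.2, 69.0 and 71.3 CPM to 51.0, 59.3, 51.2 and 53.4 CPM (log2 fold change -0.49, SE 0.0822, edgeR adjusted p = 1.81e-05). NR3C2, the mineralocorticoid receptor, had 3 lower peaks and 1 higher, all inside the gene.

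Among the orphan receptors tied to the circadian clock, RORA had 5 lower and 2 higher peaks of 36. Its leading peak in each direction was inside the gene, chr15:60651319-60651556 at -1.49 and chr15:61171258-61171511 at 1.40 on the log2 scale (edgeR adjusted p = 4.57e-06 and 0.000228), and the first was not called in replicates 3 and 4 alone. The clock repressors NR1D1 and NR1D2 and the related RORB had 1 lower peak each, and NR1D1 1 higher. The estrogen-related receptors had 7 higher and 4 lower peaks of 80, of which the 3 higher ones of ESRRA, a regulator of mitochondrial genes, were all nearer to other genes.

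Of the immediate early NR4A orphans, NR4A1 had 1 higher and 1 lower peak. The lower one, chr12:52075351-52075616, is nearest to ATG101. It had 6.22, 6.09, 4.81 and 4.46 CPM in starved vehicle and 1.19, 1.69, 1.13 and 0.730 CPM in complete vehicle (log2 change -2.17, SE 0.307, edgeR adjusted p = 5.3e-08). The separation was complete, and starved estradiol, with 5.00, 6.82, 4.34 and 5.14 CPM, lay with starved vehicle. NR4A2 had 1 lower peak and NR4A3 1 higher.

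The NR2 orphans held the largest falls in summed counts. NR2E1 and NR2E3, known from neural stem cells and photoreceptors, had 4 and 2 lower peaks of 8 tested each, and none higher. Summed NR2E1 counts were 47.1, 55.2, 47.7 and 50.6 CPM in starved vehicle and 35.4, 38.6, 33.2 and 32.5 CPM in complete vehicle (log2 change -0.56, SE 0.0776, edgeR adjusted p = 4.42e-07). Summed NR2E3 counts were 30.1, 32.1, 30.9 and 28.2 CPM in starved vehicle and 15.7 to 18.5 CPM in complete vehicle (log2 change -0.80, SE 0.111, edgeR adjusted p = 4.43e-07). Neither pair of groups overlapped. For NR2E3 both called peaks were nearer to other genes, one of them (chr15:71792601-71792816, log2 fold change -1.82, edgeR adjusted p = 5.54e-08) to THSD4, and for NR2E1 this was so for 2 of 4.

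NR2C2, the testicular receptor TR4, went the other way with 4 higher peaks of 23, of which 1 had NR2C2 as its nearest gene, and a rise of 0.16 in its sum on the log2 scale (SE 0.0397, edgeR adjusted p = 0.00273). The COUP factors gave 1 higher and 1 lower peak at NR2F1, 1 higher at NR2F2 and 2 higher at NR2F6. HNF4A, a liver and gut regulator, had 2 higher peaks, and its relative HNF4G had 1 lower. NR5A2 had 3 higher and 2 lower peaks, led by the estradiol peak (log2 fold change 2.04 between the media, SE 0.278, edgeR adjusted p = 1.94e-08), NR5A1 had 1 higher, and NR6A1 had 5 higher and 4 lower of 49. NR0B2, a receptor without a DNA-binding domain, had 2 higher peaks, both nearer to other genes.

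In summed counts 4 of the 43 genes rose in complete medium (9.3%, against 11.6% of 19687 genes) and 7 fell (16.3%, against 12.9%). The risers were ESR2, NR2C2, RXRG and RARG. Those that fell were NR2E1, NR2E3, RARB, NR3C1, THRB, RORA and HNF4G. The median log2 fold change was -0.0037 over the 43 genes and 0.0032 over all genes.

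**Figure D5:**
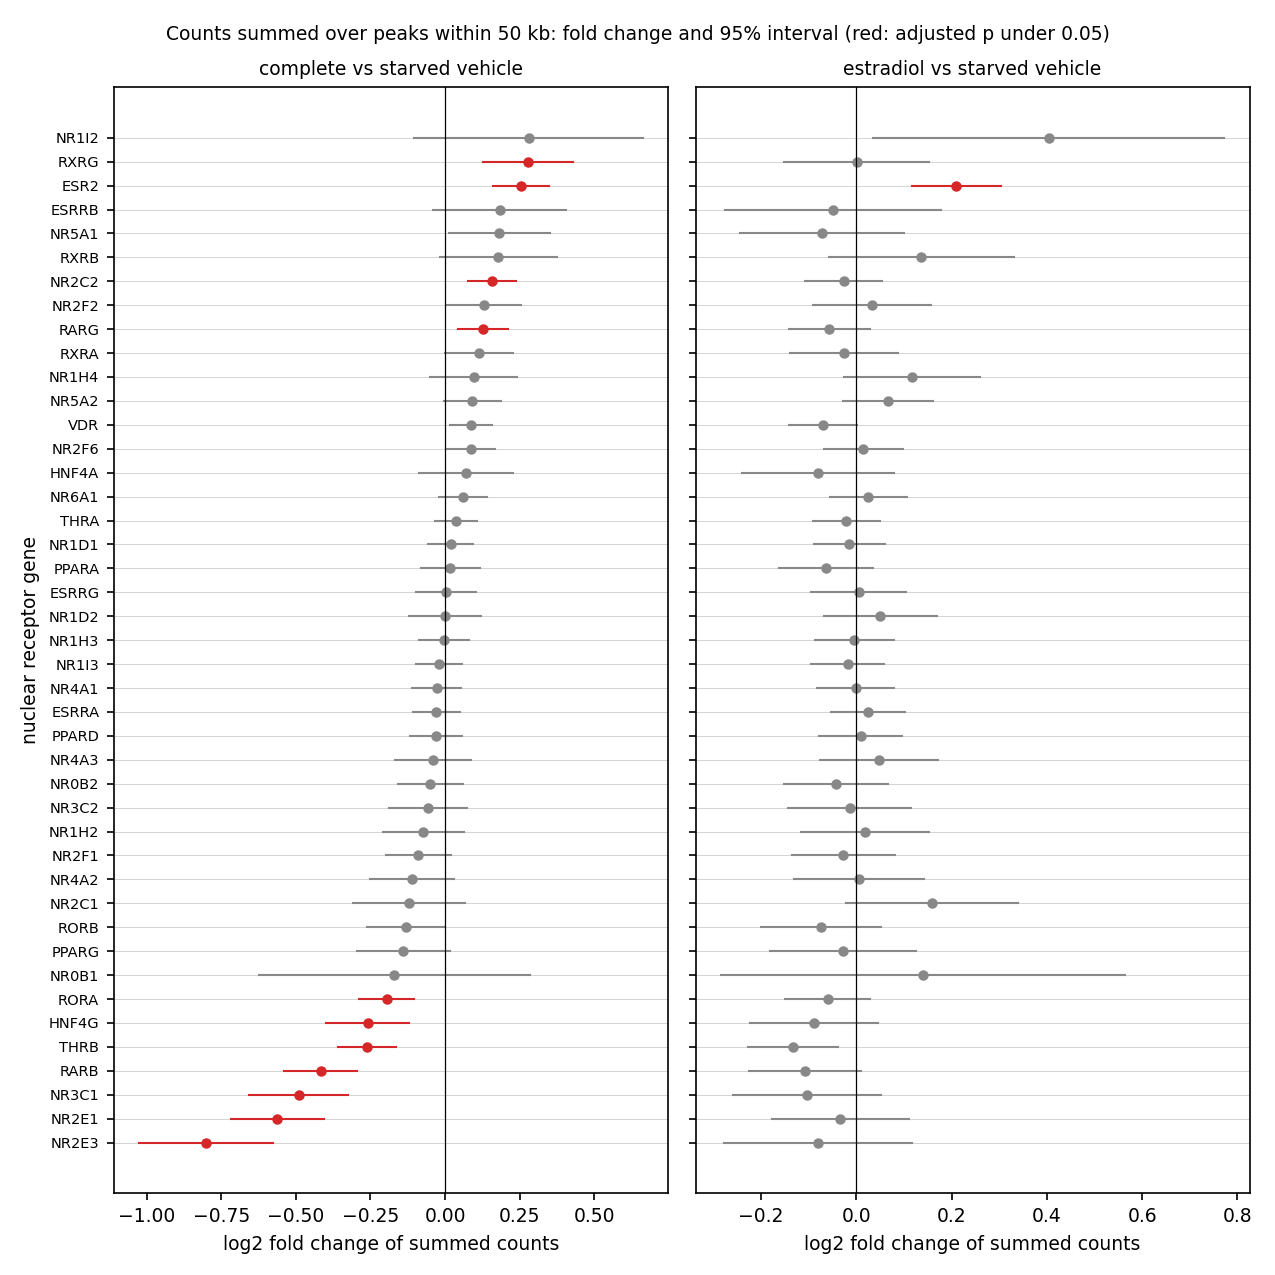
Log2 fold change and 95% interval of the counts summed over all peaks within 50 kb of each of the 43 genes, for complete against starved vehicle (left) and estradiol against starved vehicle (right), with genes in the order of the left panel. Red marks 11 genes on the left, from NR2E3 at -0.80 to RXRG at 0.28, and ESR2 alone on the right.

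The calls between media lay mostly away from starts. Of the 36 tested peaks over a start of their own receptor gene, 1 was called, the RARB peak above (2.78%). Of the 89 member peaks over a start of any gene 3 were called (3.37%), against 5.42% of 12478 such peaks in the whole set. Of the 728 member peaks elsewhere 136 were called (18.7%), against 18.9% of 144267. Peaks over starts were deeper, with a median of 4.06 against 1.63 on the log2 CPM scale among member peaks.

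Starved estradiol was also compared with complete vehicle, which adds every difference between the 2 culture arms to the hormone. Here 64 peaks were higher in starved estradiol (7.83%, against 9.39% of all peaks) and 66 were lower (8.08%, against 7.24%). Of these 130 peaks, 28 were called under every alternative run, and this share was not counted over all peaks. This comparison shares its complete vehicle libraries with the one between the media. At RARB start 4 the log2 fold change was 1.97 (SE 0.315, edgeR adjusted p = 1.63e-06). At NR4A1, RXRA and VDR the leading media peaks gave 2.13, -1.02 and -0.99 (edgeR adjusted p = 5.71e-08, 2.67e-08 and 2.66e-09). A peak 46.5 kb from NR4A2, chr2:156277809-156278023, gave 2.75 (SE 0.434, edgeR adjusted p = 1.1e-06). The estradiol peaks of NR5A2 and NR6A1 gave 0.18 and 0.58, and neither passed the test (edgeR adjusted p = 0.557 and 0.183). They were picked by the estradiol test, which shares its starved estradiol libraries with this comparison. The leading media peaks were picked by the test between the media. These values are thus not independent of how the peaks were picked, and the difference between the peaks was not tested. In summed counts 7 genes were higher in starved estradiol (16.3%, against 11.6% of all genes) and 5 lower (11.6%, against 10.4%).

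None of the 817 peaks passed the test for an antagonist. Fulvestrant, a steroidal antagonist that also drives degradation of the estrogen receptor, and the non-steroidal selective modulators raloxifene and tamoxifen were each compared with complete vehicle at 100 nM after 1 h. No nuclear receptor peak was higher or lower with any of the 3 by edgeR, against 0% of all peaks for fulvestrant and tamoxifen, and for raloxifene 0.000638% higher and 0% lower. DESeq2 called none either. At an unadjusted p under 0.05 edgeR gave 23 peaks with fulvestrant (2.82%), 32 with raloxifene (3.92%) and 31 with tamoxifen (3.79%), against 3.96%, 3.81% and 4.13% of all peaks. None of the 43 summed counts passed the test, and 2, 4 and 3 of them had an unadjusted p under 0.05, against 3.24%, 2.83% and 2.94% of 19687 genes.

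The peak with the smallest p under fulvestrant was over the start of RARG, chr12:53232351-53232551. Complete vehicle had 37.0, 38.5, 45.4 and 42.3 CPM, and fulvestrant 30.9, 31.9, 34.8 and 22.0 CPM. All fulvestrant libraries were below all vehicle libraries, but the difference did not pass the test over all peaks (log2 change -0.36, 95% interval -0.58 to -0.14, edgeR adjusted p = 1). How many of all peaks were without overlap in this comparison was not counted. Complete vehicle replicates 3 and 4 have conflicting labels, and fulvestrant replicate 4 is the shallowest library. Intervals in this paragraph are not adjusted for picking the smallest p. Raloxifene had 40.2, 38.7, 41.5 and 44.2 CPM and tamoxifen 33.9, 32.3, 41.7 and 40.6 CPM at the RARG peak. For raloxifene the smallest p was at chr17:40070152-40070447, near both THRA and NR1D1 (-0.69, 95% interval -1.11 to -0.27), and for tamoxifen at RORA chr15:60964640-60964908 (0.90, 95% interval 0.29 to 1.52). Both had an edgeR adjusted p of 1.

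The peaks raised by estradiol were also read in the antagonist groups, where none passed the test. At ESR2 chr14:64235043-64235249 fulvestrant had 29.1, 30.9, 11.7 and 15.7 CPM, raloxifene 26.0, 27.5, 25.7 and 26.5 CPM, and tamoxifen 26.0, 28.4, 22.6 and 21.0 CPM. Fulvestrant replicates 3 and 4 were below every complete vehicle library and replicates 1 and 2 above. Against complete vehicle the log2 fold change of fulvestrant was -0.06 (95% interval -0.34 to 0.22) over all replicates, 0.13 in replicates 1 and 2, and -1.06 in replicates 3 and 4, where the edgeR adjusted p was 0.0924. Complete vehicle replicates 3 and 4 are the libraries with conflicting labels, fulvestrant replicate 4 is the shallowest library, and the part of either was not tested.

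At ESR2 chr14:64232351-64232638 the same replicates stood apart with every antagonist. Fulvestrant had 22.5 and 21.7 CPM in replicates 1 and 2 and at most 12.1 CPM in replicates 3 and 4, raloxifene 19.5, 18.1, 11.2 and 10.5 CPM, and tamoxifen 17.1, 17.5, 11.6 and 10.5 CPM. Replicates 3 and 4 of all 3 compounds were below every complete vehicle library, whose own replicates 3 and 4 were also its lowest. The log2 fold changes against complete vehicle were 0.20 (95% interval -0.24 to 0.63) for fulvestrant, -0.16 (-0.59 to 0.26) for raloxifene and -0.28 (-0.72 to 0.16) for tamoxifen. At chr14:64233665-64233865 fulvestrant had 1.57 to 2.59 CPM, raloxifene 1.50 to 2.88 CPM and tamoxifen 2.09 to 3.15 CPM, and each range overlapped that of complete vehicle.

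At the NR5A2 peak fulvestrant had 8.78, 4.32, 4.95 and 1.57 CPM, raloxifene 5.07, 5.86, 6.63 and 8.87 CPM, and tamoxifen 4.05, 5.83, 5.73 and 6.49 CPM. All 4 tamoxifen libraries and fulvestrant replicates 2, 3 and 4 were below every complete vehicle library. The tamoxifen difference did not pass the test. How many of all peaks were without overlap between tamoxifen and complete vehicle was not counted. The log2 fold changes against complete vehicle were -0.19 (95% interval -0.62 to 0.24), -0.14 (-0.53 to 0.25) and -0.36 (-0.77 to 0.06). At the NR6A1 peak fulvestrant had 4.11, 4.19, 0.366 and 0 CPM, the third below every complete vehicle library (2.37 to 5.07 CPM) and the last in the shallow library, where a count of 0 allows up to 4.71 CPM, and its log2 fold change was -0.08 (95% interval -0.80 to 0.65). All of these intervals include 0, and they leave room for changes of the size of their bounds.

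The antagonists were compared with each other in 3 pairs, with p-values adjusted over all peaks within each pair. No nuclear receptor peak differed between fulvestrant and raloxifene, between fulvestrant and tamoxifen or between raloxifene and tamoxifen by edgeR, against 0 or 0.000638% of all peaks in either direction, and DESeq2 called none. At an unadjusted p under 0.05 there were 45, 49 and 26 peaks (5.51%, 6% and 3.18%, against 5.16%, 5.27% and 3.92% of all peaks). The RARG start peak had the smallest p between fulvestrant and raloxifene, with a log2 difference of -0.37 (95% interval -0.59 to -0.15, edgeR adjusted p = 0.964). Between fulvestrant and tamoxifen it was a PPARD peak near ZNF76 (chr6:35294399-35294657) at -0.60 (95% interval -0.97 to -0.23, edgeR adjusted p = 0.934). Between raloxifene and tamoxifen it was a peak inside NR3C1 (chr5:143321941-143322235) at 1.11 (95% interval 0.27 to 1.95, edgeR adjusted p = 1). At the ESR2 peak chr14:64235043-64235249 the log2 differences were -0.08 for fulvestrant against raloxifene (95% interval -0.36 to 0.20), 0.04 for fulvestrant against tamoxifen (-0.25 to 0.33) and 0.12 for raloxifene against tamoxifen (-0.14 to 0.39). These intervals do not show that the compounds act alike. Intervals of the peaks with the smallest p are not adjusted for that choice.

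A list of 38 genes around the receptors was read in the same way. Of 231 tested peaks near 10 coregulators, 18 were higher in complete medium (7.79%, against 7.93% of all peaks) and 21 lower (9.09%, against 9.91%). PPARGC1A, a coactivator of oxidative metabolism, had 1 higher and 6 lower of 34, led by a peak inside the gene that fell by 1.62 on the log2 scale (SE 0.215, edgeR adjusted p = 1.17e-08).

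Of 164 peaks near 12 genes of ligand synthesis, breakdown and carriage, 1 rose with estradiol (0.61%, against 0.813% of all peaks). It lies inside DHRS3, a retinaldehyde reductase (log2 fold change 2.19, SE 0.305, edgeR adjusted p = 2.04e-07). Between the media 17 were higher (10.4%, against 7.93%) and 10 lower (6.1%, against 9.91%). CRABP2, which carries retinoic acid to its receptors, had 5 higher and none lower of 32. ALDH1A3, which makes retinoic acid, had 3 lower and none higher of 14.

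Of 297 peaks near 16 receptor targets, 2 rose with estradiol (0.673%, against 0.813% of all peaks), both outside the gene. One lies 21.7 kb from CYP24A1, the vitamin D catabolic enzyme (log2 fold change 1.44, edgeR adjusted p = 6.33e-06). The other lies 46.6 kb from FKBP5, a glucocorticoid target (1.23, edgeR adjusted p = 0.00136). Between the media 35 were higher (11.8%, against 7.93%) and 23 lower (7.74%, against 9.91%). FKBP5 had 8 higher and none lower of 29, led by the peak that estradiol raised (2.07 on the log2 scale, SE 0.227, edgeR adjusted p = 1.92e-11). SREBF1, a liver X receptor target, had 8 higher and none lower of 18. Other genes on this list differed from these 2. ABCG1 had 3 higher and none lower of 25, while ABCA1 had 4 lower and none higher of 28. MYLIP had 1 lower and none higher of 12, and TSC22D3 had 1 higher and 2 lower of 14. CRY1 and BMAL1, clock genes with response elements for the ROR and NR1D receptors, had 6 and 3 lower peaks, and CRY1 1 higher. No peak of these 38 genes passed the test for any antagonist.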

How the data were processed

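Accessible chromatin was measured by ATAC-seq in 24 libraries of T47D cells. The deposited table holds raw counts per peak for 1 peak set common to all libraries, in 1 column per library. Reads were processed with cutadapt 1.8.1, Bowtie2 2.4.4 and SAMtools 1.9 on hg38, per the submitters' processing notes. No peak caller, counting tool, duplicate handling or Tn5 shift is named in the sources used here, and the table does not say whether its starts count from 0 or 1. Coordinates are printed as deposited.

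Groups came from the library titles. Peaks were tested with edgeR 4.0.16 (R 4.3.3): filterByExpr with a minimum count of 10 and a minimum total of 15, TMM scaling, and a robust quasi-likelihood fit over all 6 groups, with Benjamini-Hochberg adjustment over the 156745 tested peaks at 0.05. SE is the log2 fold change divided by the root of F, and intervals are 95%. CPM uses TMM-scaled totals. Summed counts were fitted in the same way over 19687 protein-coding genes. DESeq2 1.42.0, RLE factors, total counts, no filter, a replicate block, subsets of libraries, each library left out and a 10 kb window were alternatives. Fits were tested on simulated data.

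For each main comparison, each gene was represented by its called peak with the smallest p in each direction, and up to 12 genes per direction could be named. For antagonists this was 5 genes. Members, lists and rules were chosen with earlier results of these data known. Replicate numbers paired raloxifene with tamoxifen libraries by the correlation of their deviations (r of 0.121 to 0.153 for every pair), and the block changed no call there. Within groups, chi-square per degree of freedom between libraries was 1.74 to 3.81 over 36 pairs, so none was treated as a duplicate. Promoter windows came from RefSeq and follow the gene's strand, checked on 981 overlapping windows of opposite strands. The values of 1 coregulator gene are not reported here.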

Additional observations from a re-analysis of the deposited data

Results flagged for a closer look

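A library stood far from the other 3 of its group in 10 of 144 groups of values examined, where chance gives about 1 in 20. The NR6A1 estradiol peak was at 0 CPM in starved vehicle replicate 3, against 1.73 to 1.99 in the other 3 libraries. The ESR2 peak chr14:64233665-64233865 was at 2.19 CPM in complete vehicle replicate 4 (the others 2.98 to 3.12) and at 1.57 CPM in fulvestrant replicate 4 (the others 2.47 to 2.59). The RXRA peak chr9:134422394-134422664 was at 9.38 CPM in starved estradiol replicate 2 (12.5 to 13.1), and the RXRA peak chr9:134456509-134456765 at 17.3 CPM in fulvestrant replicate 4 (10.8 to 11.4). The RARB start peak was at 3.23 CPM in starved estradiol replicate 3 (5.27 to 5.54). Summed NR2E3 counts were 14.1 CPM in fulvestrant replicate 4 (19.4 to 19.6) and 14.3 CPM in raloxifene replicate 4 (19.9 to 20.9). Summed THRB counts were 78.5 CPM in fulvestrant replicate 4 (149 to 156) and 163 CPM in tamoxifen replicate 4 (140 to 142). Of the 10, 4 were in fulvestrant replicate 4, the shallowest library.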

How the results depend on the processing

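With estradiol, 5 peaks were higher in most alternatives. Leaving out 1 library gave 3 to 5 higher, and the replicate block and a term for replicates 1 and 2 against 3 and 4 (added after the data were seen) each gave 7 higher and 1 lower. Between the media, leaving out 1 library gave 48 to 81 higher and 52 to 71 lower. Replicates 3 and 4 alone gave 26 higher and 31 lower, replicates 1 and 2 alone 45 lower, the set without conflicting labels 41 lower, and the 10 kb window 37 higher. For starved estradiol against complete vehicle, leaving out 1 library gave 49 to 63 higher and 47 to 63 lower, replicates 3 and 4 alone gave 31 higher and 23 lower, the set without conflicting labels 34 higher, and the 10 kb window 33 lower. In replicates 3 and 4 alone 1 peak was higher with fulvestrant than tamoxifen. Summed counts gave 0 to 1 gene higher with estradiol when 1 library was left out. Between the media they gave 3 to 7 genes higher and 7 lower when 1 library was left out, and 7 higher with the added term. For estradiol against complete vehicle they gave 4 to 7 higher and 4 to 6 lower, and 4 higher without conflicting labels. The cause was not tested, beyond fewer libraries or peaks.

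At the RARB peak over start 3 the media difference (-0.12) lay between -0.204 and 0.0267 with 1 library left out and turned sign only without starved vehicle replicate 1, and the difference of estradiol against complete vehicle (-0.21) turned to 0.0587 in replicates 1 and 2 alone, and neither was called. Outside raloxifene against tamoxifen no comparison had r over 0.1 for every same-number pair (r from -0.0334 to 0.211). For starved estradiol against complete vehicle r was 0.0936 to 0.166, and all 4 libraries matched best with their own number. For starved estradiol against starved vehicle r was 0.0885 to 0.211, and 2 libraries matched best with their own number. Some pairing by number may therefore remain in these comparisons, and the main fit ignores it. Under the replicate block starved estradiol against complete vehicle gave 74 higher and 81 lower (64 and 66 in the main fit). Starved estradiol against starved vehicle gave 7 higher and 1 lower under the block (5 and 0 in the main fit). The media counts under the block were 75 higher and 74 lower. Depth limits the weaker peaks, above all in fulvestrant replicate 4.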
